A study of Mus musculus with 18 samples.

Results

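The actin genes are described here: Acta1, Actc1, Acta2, Actg2, Actb and Actg1, the 6 genes of the classical mouse actin isoforms. They were chosen by name, through the symbols paired with the Ensembl identifiers, and are 6 of the 38355 gene identifiers in the count tables. All 6 passed the filter on low counts and were tested together with the other genes, 14876 in all.

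RNA of the left ventricle was sequenced from (DBA/2J x C3HeB/FeJ)F1 mice in 18 libraries. The groups were MHC-cycD2 transgenic mice with an aortocaval Shunt (cycD2 Shunt, n = 5), MHC-cycD2 transgenic mice with a constriction of the transverse aorta (cycD2 TAC, n = 3, replicates 1, 2 and 4), MHC-cycD2 transgenic mice with a sham operation (cycD2 sham, n = 5) and wild type mice with no treatment (WT, n = 5). The transgene drives cyclin D2, a protein that takes cells into the DNA synthesis phase of the cell cycle, in heart muscle cells through a myosin heavy chain promoter, so every operated group carries it and sham differs from WT by genotype and by operation. A TAC is a pressure load and a Shunt a volume load. Operated mice were 8 weeks old at surgery, and the labels do not say which of the 2 sham procedures the sham mice had, nor how long after surgery the hearts were taken.

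Actin is the protein of the thin filament, along which myosin heads pull when muscle contracts, and of the cytoskeleton of every cell. Mammals make it from a small gene family: Actc1 and Acta1 encode the cardiac and skeletal sarcomeric alpha-actins, Acta2 and Actg2 the vascular and enteric smooth muscle actins, and Actb and Actg1 the cytoplasmic actins. In the rodent heart Actc1 is the main isoform of the adult ventricle, Acta1 is high around birth and again under pressure load, and Acta2 is made by vessel walls, by activated fibroblasts and early in heart development.

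The isoforms are close copies of each other, which bears on how reads can be told apart. Over the 1128 coding bases compared, identity between any pair was 81.6% to 88.7%, and the cytoplasmic pair Actb and Actg1 was the most alike. A stretch of 60 coding bases near the 5′ end, given in the coding direction from the GENCODE M21 transcripts, shows this, with the 20 positions at which the 6 genes differ in capitals.
Acta1: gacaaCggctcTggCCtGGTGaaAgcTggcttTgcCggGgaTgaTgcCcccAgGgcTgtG
Actc1: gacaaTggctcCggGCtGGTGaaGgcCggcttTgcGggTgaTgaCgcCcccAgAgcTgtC
Acta2: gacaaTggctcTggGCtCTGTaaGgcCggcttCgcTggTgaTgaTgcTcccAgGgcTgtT
Actg2: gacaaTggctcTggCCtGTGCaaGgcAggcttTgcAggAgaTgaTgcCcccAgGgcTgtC
Actb: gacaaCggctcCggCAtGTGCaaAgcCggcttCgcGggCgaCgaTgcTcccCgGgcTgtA
Actg1: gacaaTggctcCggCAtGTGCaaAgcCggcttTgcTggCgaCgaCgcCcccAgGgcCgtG
Of all stretches of 50 coding bases, 0.0% in Actc1 and Actg2, 0.6% in Acta2, 2.9% in Acta1 and 19.6% in Actb also occurred, letter for letter, in a transcript of another gene, other actins included. In Actg1 all of them did (100.0%), among others in the processed pseudogenes Gm12715 and Gm8399. A read that lies wholly within such a stretch matches another gene as well, while a read that extends past it may not. How many reads this touched was not tested. The count of Actg1 is thus uncertain, and less so that of Actb and, by a small part, those of Acta1 and Acta2.

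Muscle actin promoters are known for the CArG box (CC, then 6 bases of A or T, then GG), the site of serum response factor, SRF. The 250 bases before the RefSeq start are shown for the sarcomeric pair Acta1 and Actc1 and for Acta2, whose level went with that of Actc1, 5′ to 3′ on the gene's strand (GRCm38.p6), with CArG boxes, CArG-like stretches with 1 inner G or C, and CATTCC, the site of TEAD factors, in capitals on either strand. They lie at chr8:123894776-123895025 (Acta1), chr2:114052876-114053125 (Actc1) and chr19:34255374-34255623 (Acta2), all on the minus strand.
Acta1: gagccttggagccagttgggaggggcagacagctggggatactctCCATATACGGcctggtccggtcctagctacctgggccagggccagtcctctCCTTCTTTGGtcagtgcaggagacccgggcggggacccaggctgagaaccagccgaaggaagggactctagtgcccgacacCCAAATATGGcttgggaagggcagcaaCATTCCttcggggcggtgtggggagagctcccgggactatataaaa
Actc1: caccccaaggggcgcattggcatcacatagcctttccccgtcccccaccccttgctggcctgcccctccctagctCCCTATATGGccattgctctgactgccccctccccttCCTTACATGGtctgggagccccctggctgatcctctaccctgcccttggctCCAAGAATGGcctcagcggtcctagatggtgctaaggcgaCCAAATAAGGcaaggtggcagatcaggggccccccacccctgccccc
Acta2: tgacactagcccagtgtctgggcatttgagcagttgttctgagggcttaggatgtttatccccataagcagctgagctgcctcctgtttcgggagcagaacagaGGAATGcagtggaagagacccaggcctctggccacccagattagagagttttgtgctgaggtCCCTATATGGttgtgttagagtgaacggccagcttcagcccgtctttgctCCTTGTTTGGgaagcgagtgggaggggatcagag
A CArG box stood at bases -73 to -64 of Acta1 (CCAAATATGG) and at -47 to -38 of Actc1 (CCAAATAAGG). Acta1 held 2 further CArG-like stretches, Actc1 held 3 and Acta2 held 2, the last at -84 to -75 and -34 to -25. CATTCC stood at -46 to -41 of Acta1, and its reverse GGAATG at -146 to -141 of Acta2. In the same window of 32841 RefSeq promoters, 1.47% held a CArG box, 7.24% a CArG-like stretch, 0.67% at least 2 of either, and 12.64% CATTCC. The Actg1 promoter held 1 CArG box (CCATATATGG). These matches describe the letters of the window and do not show binding. The promoters of Actb and Actg2 were not examined, as the promoter set used gave no window for them.

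Some libraries stood apart in ways the groups do not give. Ccnd2, which the transgene adds to, was at 20492 ± 1891 CPM in Shunt (SD, n = 5), 25496 ± 4266 CPM in sham (SD, n = 5) and 172 ± 19.9 CPM in WT (SD, n = 5). CPM, counts per unit of scaled library size, are the levels used throughout. TAC replicates 1 and 4 had 22050 and 25843 CPM, but the library labelled cycD2 TAC replicate 2 had 228 CPM, near WT. Many TAC results are therefore given with and without it. Levels and fold changes of single genes in the lists beside the actins are given with it only. The mean log2 CPM of 4 Y-linked genes was -3.58 to -2.21 in all Shunt libraries and in the libraries labelled TAC replicates 1 and 2, and 5.20 to 5.70 in the others, while the labels say that both sexes were operated. The clock gene Arntl was above Dbp, by a log2 difference of 1.83 to 3.07, in all TAC libraries, sham replicates 1 and 2 and WT replicates 1 to 3, and below it in the others. Total gene counts were 19297821 to 30594075, and the labels do not say that each library is another animal, so the p-values reflect the scatter among libraries, which may be technical.

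Per kilobase of exon, Actc1 was the most abundant isoform in every group and the rank of Acta1 moved. Actc1 averaged 6697 CPM per kilobase in Shunt, 10165 in TAC, 8168 in sham and 6727 in WT. Acta1 came second in TAC, at 3951 CPM per kilobase, and in WT, at 1041. In Shunt it averaged 188 CPM per kilobase, between Acta2 at 220 and Actb at 116.5, with overlapping ranges. In sham it averaged 108.5 CPM per kilobase, below Acta2 at 256 and Actb at 139, with ranges that overlapped those of both genes. Actg1 and Actg2 stayed between 0.502 and 2.95 CPM per kilobase in all 18 libraries.

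**Figure D1:**
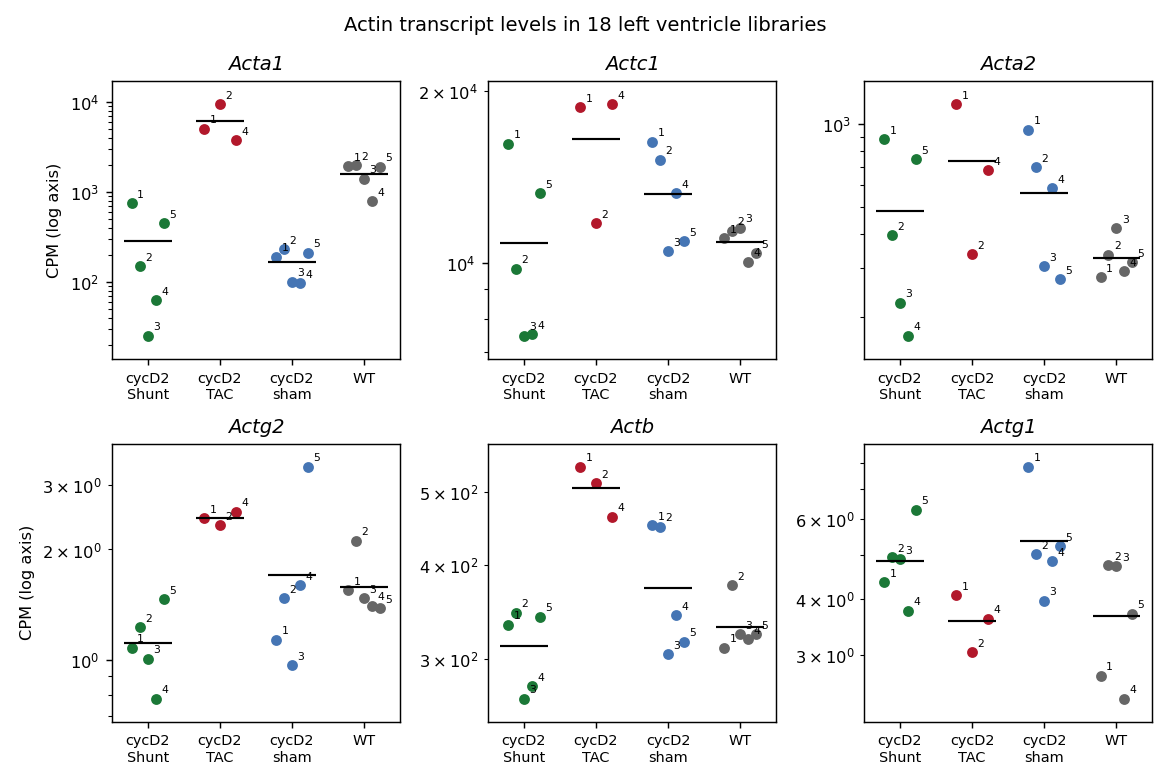
Level of each actin gene in CPM on a log axis, 1 point per library with its replicate number, for cycD2 Shunt, cycD2 TAC, cycD2 sham and WT left ventricles; black lines are group means. Acta1 lies between 3769 and 9404 CPM in the TAC libraries and between 96.9 and 232 CPM in the sham libraries, and the 5 Shunt libraries spread from 25.2 to 752 CPM.

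Acta1, the skeletal alpha-actin (ENSMUSG00000031972, GRCm38 chromosome 8, 123891769 to 123894751, minus strand), separated the groups most widely. It was at 752, 151, 25.2, 62.7 and 452 CPM in Shunt replicates 1 to 5. TAC replicates 1, 2 and 4 had 5032, 9404 and 3769 CPM. Sham replicates 1 to 5 had 191, 232, 101, 96.9 and 212 CPM, and WT replicates 1 to 5 had 1919, 1973, 1399, 789 and 1913 CPM. Every TAC library lay above every other library, every WT library lay above every Shunt and sham library, and Shunt and sham overlapped.

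Acta1 fell 9.59-fold in sham ventricles, to 167 ± 63.4 CPM, against 1599 ± 509 CPM in WT (SD, n = 5 each), a log2 fold change of -3.26 ± 0.73 (SE, edgeR quasi-likelihood test, adjusted p = 0.0041). Its level was 36.4-fold higher in TAC, at 6068 ± 2957 CPM (SD, n = 3), than in sham, a log2 fold change of 5.19 ± 0.83 (adjusted p = 3.46e-04), and without the library labelled TAC replicate 2 the change was 4.72 (adjusted p = 0.0019). In bulk tissue, fewer cells that express a gene and less RNA per cell cannot be told apart. Genotype and operation cannot be told apart in sham over WT. Where Arntl was above Dbp, the Acta1 log2 fold change was -3.05 for sham over WT (adjusted p = 0.0102) and 4.85 for TAC over sham (adjusted p = 0.0028), and where Dbp was above Arntl it was -3.29 for sham over WT (adjusted p = 0.1504, 3 against 2 libraries).

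Shunt ventricles averaged 289 ± 309 CPM of Acta1 (SD, n = 5), a log2 fold change of 0.79 ± 0.68 over sham that did not pass the test (adjusted p = 0.6324). Against TAC, Acta1 in Shunt fell by 4.39 ± 0.81 log2 units (adjusted p = 0.0012), and without the library labelled TAC replicate 2 it fell by 3.93 (adjusted p = 0.0069). The highest Shunt library held 29.8 times the Acta1 of the lowest, and the SD of log2 CPM among Shunt libraries, 2.01, was at the 99.9th percentile of all tested genes, whose median was 0.17. All 5 Shunt libraries had low Y-linked levels and Dbp above Arntl. No sham library had low Y-linked levels, so Y-linked level and operation cannot be told apart in Shunt over sham.

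Against untreated WT, Shunt ventricles had less Acta1, with a log2 fold change of -2.47 ± 0.71 (adjusted p = 0.0145). That call was lost with the Y-linked covariate (-3.32, adjusted p = 0.3513) and with the 2 groups alone (-2.47, adjusted p = 0.0571). It was also lost where Dbp was above Arntl (-2.22, adjusted p = 0.1881). Y-linked levels were low in all Shunt libraries and high in all WT libraries, so the Y-linked covariate nearly repeats the group here. Its fit cannot separate the Y-linked level from the group. TAC ventricles had 3.80 times the WT level, a log2 fold change of 1.92 ± 0.76 that missed the threshold (adjusted p = 0.0622) although the ranges did not overlap. It passed by DESeq2 (1.93, adjusted p = 0.0187), with the 2 groups alone (1.94, adjusted p = 0.0054) and where Arntl was above Dbp (1.79, adjusted p = 0.0069), and without the library labelled TAC replicate 2 it was 1.46 (adjusted p = 0.2155). These contrasts join genotype and operation and are not among the 4 that the series names. The span of Acta1 overlaps that of Gm20388 on the opposite strand, and the library kit does not keep the strand. Whether the pair shares exon bases was not examined, so any effect on the Acta1 count was not tested.

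Actc1, the cardiac alpha-actin (ENSMUSG00000068614, chromosome 2, 114047282 to 114053548, minus strand), had 16165, 9780, 7464, 7519 and 13254 CPM in Shunt replicates 1 to 5. TAC replicates 1, 2 and 4 had 18684, 11724 and 18933 CPM. Sham replicates 1 to 5 had 16283, 15152, 10494, 13234 and 10916 CPM, and WT replicates 1 to 5 had 11057, 11382, 11524, 10063 and 10399 CPM. WT libraries were close to each other, with an SD of log2 CPM of 0.08, while Shunt libraries spread with an SD of 0.50. Each TAC library lay above each WT library, by little in the library labelled TAC replicate 2, and all other pairs of groups overlapped.

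Actc1 did not pass the test in any of the 4 comparisons named by the series. Its log2 fold change was -0.29 ± 0.20 in Shunt over sham (adjusted p = 0.5323), -0.60 ± 0.23 in Shunt over TAC (adjusted p = 0.0559), 0.32 ± 0.23 in TAC over sham (adjusted p = 0.3114) and 0.28 ± 0.20 in sham over WT (adjusted p = 0.3144). In TAC over WT it passed narrowly, at 0.60 ± 0.23 (adjusted p = 0.0496), and 17 of 30 other settings put it above 0.05. Without the library labelled TAC replicate 2, Actc1 passed in Shunt over TAC, at -0.80 (adjusted p = 0.0290), and in TAC over WT, at 0.79 (adjusted p = 0.0184), and not in TAC over sham, at 0.51 (adjusted p = 0.1473). In the library labelled TAC replicate 2 the sarcomeric isoforms went opposite ways within the TAC group, with the highest Acta1 and the lowest Actc1. The span of Actc1 also overlaps that of a gene on the opposite strand, A530058N18Rik.

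Acta2, the vascular smooth muscle actin (ENSMUSG00000035783, chromosome 19, 34241090 to 34255590, minus strand), had 883, 395, 225, 171 and 747 CPM in Shunt replicates 1 to 5. TAC replicates 1, 2 and 4 had 1179, 337 and 680 CPM. Sham replicates 1 to 5 had 952, 699, 305, 584 and 274 CPM, and WT replicates 1 to 5 had 278, 336, 418, 293 and 316 CPM. From the lowest to the highest library, Shunt spread 5.17-fold, TAC 3.49-fold (1.73-fold without the library labelled TAC replicate 2), sham 3.48-fold and WT 1.50-fold, all around overlapping ranges. No comparison passed the test: the log2 fold change was -0.22 ± 0.47 in Shunt over sham (adjusted p = 0.8681), -0.60 ± 0.53 in Shunt over TAC (adjusted p = 0.4394), 0.38 ± 0.53 in TAC over sham (adjusted p = 0.6273) and 0.78 ± 0.47 in sham over WT (adjusted p = 0.2382). Without the library labelled TAC replicate 2 it was -0.94 in Shunt over TAC and 0.72 in TAC over sham, still short of the threshold (adjusted p = 0.2787 and 0.4077).

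Across libraries Acta2 went with Actc1. Over the 18 libraries, Pearson's r of log2 CPM was 0.92 and Spearman's rho 0.87, and r was 0.95 for deviations from the group means; the points share libraries and groups, and the values are a description. In Shunt both genes were highest in replicate 1, then 5 and 2, and lowest in replicates 3 and 4. In sham both ran in the order of replicates 1, 2 and 4 above 3 and 5. The library labelled TAC replicate 2 was the lowest of the TAC libraries for both.

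The summed level of 10 smooth muscle and pericyte markers (Myh11, Tagln, Rgs5 and others, without Acta2) had another pattern. It was 1411, 1199, 1030, 1057 and 1321 CPM in Shunt replicates 1 to 5, in the order of Acta2 except for replicates 3 and 4. It was 1513, 1390 and 1300 CPM in TAC replicates 1, 2 and 4. In sham replicates 1 to 5 it was 1107, 1124, 1173, 1209 and 1155 CPM, and in WT it was 1416 to 1604 CPM. Sham replicate 1 thus had the highest Acta2 of its group and the lowest marker sum, and WT libraries combined Acta2 of 278 to 418 CPM with sums of 1416 CPM or more.

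**Figure D2:**
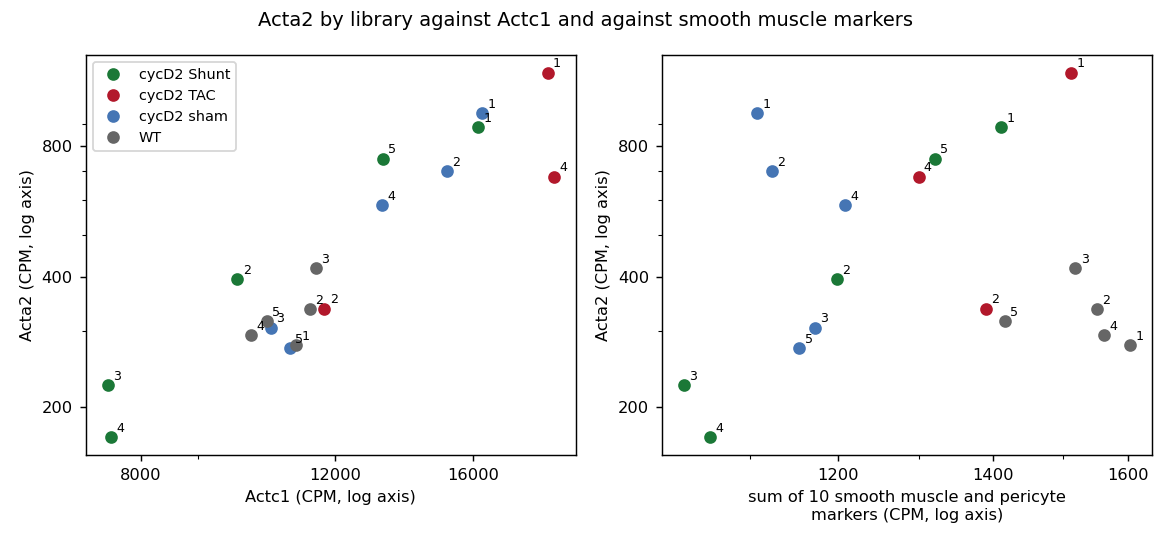
Acta2 in CPM (vertical, log axis) against Actc1 in CPM (left) and against the summed CPM of 10 smooth muscle and pericyte markers (right, both log axes), 1 point per library with its replicate number, for cycD2 Shunt, cycD2 TAC, cycD2 sham and WT. Acta2 climbs with Actc1 across libraries (Pearson's r of log2 CPM 0.92, 18 libraries), whereas the sham libraries hold 274 to 952 CPM of Acta2 at marker sums of 1107 to 1209 CPM.

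Actg2, the enteric smooth muscle actin (ENSMUSG00000059430, chromosome 6, 83512905 to 83536265, minus strand), was near the lower end of what these libraries measure, with 21 to 76 counts. Shunt replicates 1 to 5 had 1.08, 1.22, 1.01, 0.782 and 1.46 CPM, against 2.44, 2.33 and 2.53 CPM in TAC replicates 1, 2 and 4. Sham replicates 1 to 5 had 1.13, 1.47, 0.966, 1.60 and 3.36 CPM, and WT libraries had 1.38 to 2.11 CPM. All Shunt libraries lay below all TAC libraries, and Actg2 in Shunt fell by 1.12 ± 0.30 log2 units against TAC (adjusted p = 0.0103). That call held without the library labelled TAC replicate 2 (-1.16, adjusted p = 0.0269) and was lost with the Y-linked covariate (-1.07, adjusted p = 0.0523). That covariate rests largely on TAC, the only group with both low and high Y-linked levels. Actg2 did not pass in Shunt over sham (-0.61 ± 0.27, adjusted p = 0.3136), in TAC over sham (0.51 ± 0.30, adjusted p = 0.2106) or in sham over WT (0.11 ± 0.27, adjusted p = 0.8002). With so few counts, counting error is a large part of each value.

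Actb, the beta cytoplasmic actin (ENSMUSG00000029580, chromosome 5, 142903115 to 142906754, minus strand), often serves as a reference gene. It had 333, 346, 266, 276 and 341 CPM in Shunt replicates 1 to 5. TAC replicates 1, 2 and 4 had 540, 513 and 463 CPM. In sham replicates 1 to 5 it had 452, 449, 304, 343 and 316 CPM, and WT replicates 1 to 5 had 310, 376, 323, 319 and 323 CPM. Each TAC library lay above each library of the other groups, by a small step over sham replicates 1 and 2, and the other 3 groups overlapped.

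Actb rose 1.36-fold in TAC over sham, to 505 ± 38.8 CPM (SD, n = 3), against 373 ± 72.4 CPM (SD, n = 5), a log2 fold change of 0.44 ± 0.13 (adjusted p = 0.0143). In Shunt against TAC it fell by 0.70 ± 0.13 log2 units (adjusted p = 7.90e-04), and was higher in TAC than in WT by 0.61 ± 0.13 (adjusted p = 0.0012). Without the library labelled TAC replicate 2, TAC over sham was 0.43 (adjusted p = 0.0467). In that fit Shunt over TAC was -0.68 (adjusted p = 0.0043) and TAC over WT was 0.60 (adjusted p = 0.0045). TAC over sham lost the call with the Y-linked covariate (0.31, adjusted p = 0.4124). That covariate rests largely on TAC, the only group with both low and high Y-linked levels. It cannot separate the Y-linked level from other differences among the TAC libraries. The call was also lost within the libraries with Arntl above Dbp (0.16, adjusted p = 0.3707), where the sham libraries are replicates 1 and 2.

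Actg1, the gamma cytoplasmic actin (ENSMUSG00000062825, chromosome 11, 120345690 to 120348542, minus strand), held only 53 to 194 counts. It had 4.35, 4.94, 4.90, 3.76 and 6.31 CPM in Shunt replicates 1 to 5, and 4.07, 3.04 and 3.61 CPM in TAC replicates 1, 2 and 4. In sham replicates 1 to 5 it had 7.85, 5.02, 3.95, 4.84 and 5.22 CPM, and WT replicates 1 to 5 had 2.69, 4.74, 4.72, 2.40 and 3.70 CPM. The groups overlapped, and the log2 fold change was -0.15 ± 0.20 in Shunt over sham (adjusted p = 0.7891) and 0.44 ± 0.24 in Shunt over TAC (adjusted p = 0.1869). It was -0.59 ± 0.24 in TAC over sham (adjusted p = 0.0741) and 0.56 ± 0.21 in sham over WT (adjusted p = 0.0523), the last past the threshold in 8 of 31 other settings, DESeq2 among them (0.57, adjusted p = 0.0311). Without the library labelled TAC replicate 2, TAC over sham was -0.48 (adjusted p = 0.2345). Given the repeats of its coding sequence described above, this level is that of the reads that could be placed, and may not be that of all Actg1 transcripts.

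Counted by comparison, the actin genes gave 0 higher and 0 lower of 6 in Shunt over sham, where 0.242% of the tested genes were called (36 genes, with 2167 at an unadjusted p under 0.05 and 232 called by DESeq2). In Shunt over TAC 3 of 6 were lower, Acta1, Actb and Actg2, against 27.0% of all genes called in either direction, 13.3% higher and 13.6% lower, and 4 without the library labelled TAC replicate 2, Actc1 being the added gene, against 18.4% called and 9.49% lower in that fit. In TAC over sham 2 were higher, Acta1 and Actb, against 30.9% called and 16.4% higher, and leaving out the library labelled TAC replicate 2 gave the same 2, against 22.1% called and 11.9% higher. In sham over WT only Acta1 was called, lower, against 28.4% called, 13.5% higher and 14.9% lower. In TAC over WT 2 were higher, Actc1 and Actb, against 34.0% called and 17.1% higher. In Shunt over WT Acta1 alone was lower, against 32.3% called and 16.7% lower. The ranges of CPM of the 2 groups did not overlap in 4.09% of all tested genes in Shunt over sham, 24.7% in Shunt over TAC, 28.1% in TAC over sham, 22.3% in sham over WT, 30.6% in TAC over WT and 23.8% in Shunt over WT, which are the shares to hold beside the separations of Acta1, Actc1, Actb and Actg2 above. The median log2 fold change of the 6 genes was -0.24 in Shunt over sham, -0.65 in Shunt over TAC, 0.41 in TAC over sham and 0.23 in sham over WT, beside -0.01 to 0.01 over all tested genes. Comparisons that share a group share its libraries.

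**Figure D3:**
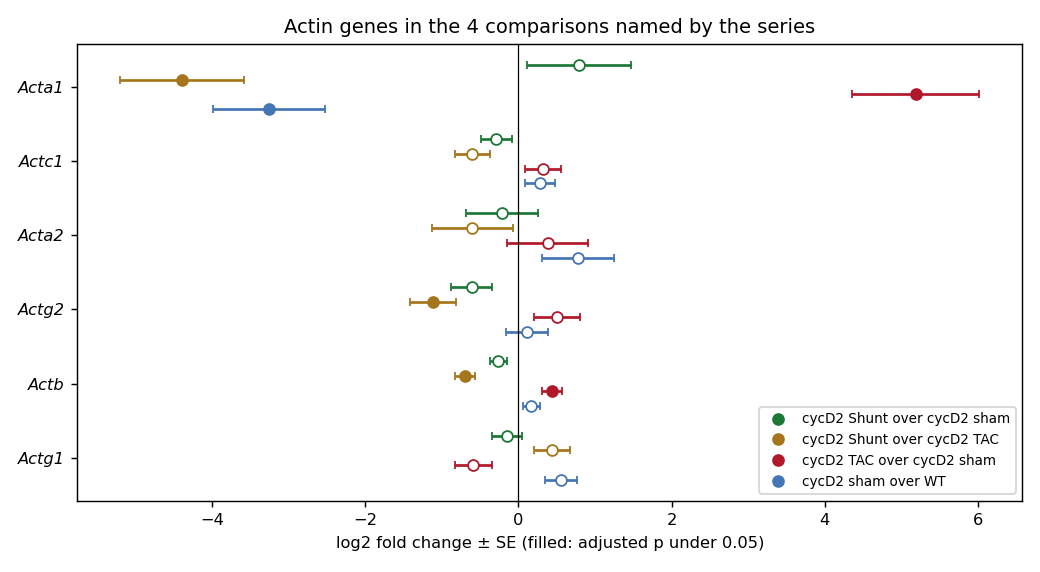
Log2 fold change of the 6 actin genes in the 4 comparisons named by the series, with SE bars; filled points have an adjusted p under 0.05 (edgeR quasi-likelihood test). Acta1 moves by -4.39 (Shunt over TAC) to 5.19 (TAC over sham), with its sham over WT point at -3.26, and the other 5 genes stay between -1.12 and 0.78.

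The share of each isoform in the summed CPM of the 6 genes does not depend on how libraries are scaled. The sum was 11927 ± 4447 CPM in Shunt (SD, n = 5), 23759 ± 1730 CPM in TAC (SD, n = 3), 14325 ± 2917 CPM in sham and 13147 ± 1021 CPM in WT (SD, n = 5 each). TAC libraries, at 21984 to 25441 CPM, lay above the highest library of any other group, a Shunt library at 18138 CPM. The library labelled TAC replicate 2 did not stand apart in this sum, although its Acta1 and Actc1 did.

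Acta1 made up 4.15, 1.41, 0.316, 0.780 and 3.06% of actin CPM in Shunt replicates 1 to 5, and 19.8, 42.8 and 15.8% in TAC replicates 1, 2 and 4. In sham replicates 1 to 5 it made up 1.07, 1.40, 0.903, 0.680 and 1.81%, and in WT replicates 1 to 5 it made up 14.2, 14.0, 10.2, 6.88 and 14.8%. TAC shares lay above all others, WT shares lay above all Shunt and sham shares, and Shunt and sham overlapped. Means were 1.94 ± 1.61% in Shunt, 26.1 ± 14.6% in TAC, 1.17 ± 0.444% in sham and 12.0 ± 3.38% in WT (SD, n = 5, 3, 5 and 5).

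Actc1 took nearly all of the rest: 91.5 ± 2.11% in Shunt, 68.7 ± 13.7% in TAC, 92.4 ± 1.07% in sham and 82.9 ± 3.11% in WT. Acta2 held 3.71 ± 1.27% in Shunt, 3.01 ± 1.56% in TAC, 3.74 ± 1.21% in sham and 2.50 ± 0.366% in WT. Actb held 2.83 ± 0.714% in Shunt, 2.13 ± 0.196% in TAC, 2.61 ± 0.141% in sham and 2.52 ± 0.206% in WT. The Actb share in TAC lay below that in every sham library (exact permutation p = 0.0357, adjusted 0.0857), and all other pairs of groups overlapped for Actb, as all pairs did for Acta2. Actg1 and Actg2 made up at most 0.0613% in any library, and the Actg1 share, at a mean of 0.0150% in TAC, lay below that of every other library. With Acta1 left out of the sum, the Actg1 share was 0.0180% to 0.0241% in TAC and overlapped WT, at 0.0224% to 0.0392%. It still lay below Shunt, at 0.0250% or more, and sham, at 0.0308% or more. Per kilobase the Acta1 shares were close to these, at 2.09% in Shunt, 27.5% in TAC, 1.26% in sham and 12.8% in WT.

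The share of Acta1 was lower in sham than in WT, a difference of -10.8 percentage points, and an exact 2-sided permutation test gave p = 0.0079, the smallest that 5 against 5 libraries allow. In TAC it was higher than in sham by 24.9 points and the Shunt minus TAC difference was -24.2 points (exact permutation p = 0.0357 for each, the smallest that 3 against 5 allow), and without the library labelled TAC replicate 2 these were 16.6 and -15.9 points. Shunt over sham differed by 0.770 points (exact permutation p = 0.373). After Benjamini-Hochberg adjustment over the 36 share tests none passed, with exact permutation p-values adjusted to 0.0714 for sham over WT and 0.0857 for the TAC contrasts. Shares trade off against each other: with Acta1 left out of the sum, Actc1 made up 93.3% in Shunt, 93.0% in TAC, 93.5% in sham and 94.3% in WT.

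**Figure D4:**
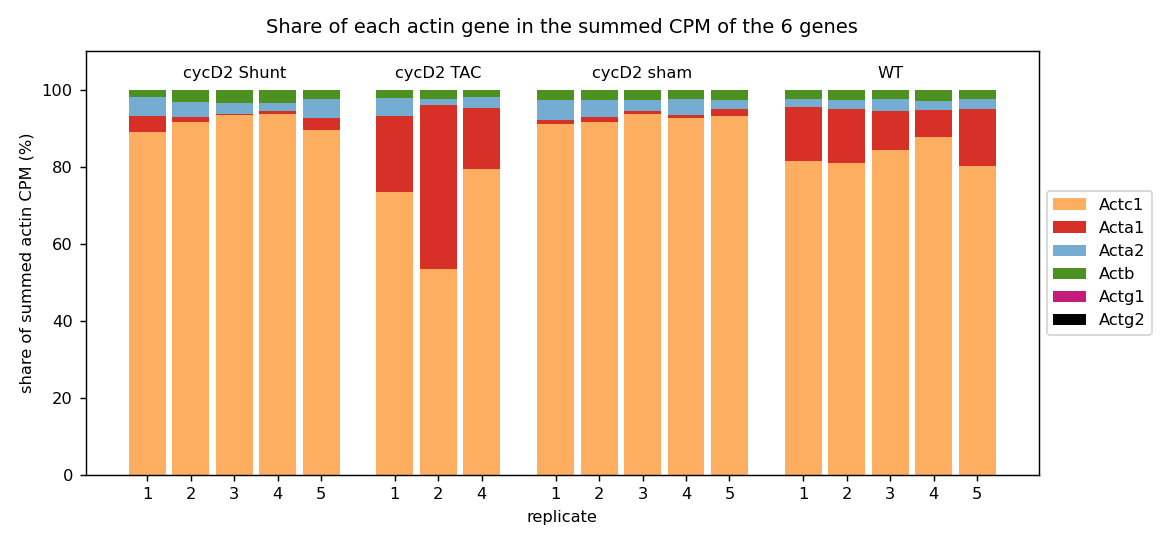
Share of each actin gene in the summed CPM of the 6 genes, in percent, 1 stacked bar per library, for cycD2 Shunt, cycD2 TAC, cycD2 sham and WT; Actg1 and Actg2 are too small to see. The Acta1 band takes 15.8 to 42.8% in TAC and 6.88 to 14.8% in WT, and at most 4.15% in the Shunt and sham bars.

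The log2 ratio of Acta1 to Actc1 per kilobase, within each library, was -4.35, -5.94, -8.13, -6.83 and -4.80 in Shunt replicates 1 to 5, and -1.82, -0.24 and -2.25 in TAC replicates 1, 2 and 4. Sham replicates 1 to 5 had -6.34, -5.96, -6.62, -7.02 and -5.61, and WT replicates 1 to 5 had -2.45, -2.45, -2.97, -3.60 and -2.37. The TAC and WT libraries formed the upper range, with every TAC value above every WT value, and Shunt and sham overlapped below them. The ratio was lower in sham than in WT, a difference of -3.54 log2 units (exact permutation p = 0.0079, adjusted over 6 tests 0.0238) and higher in TAC than in sham by 4.87 (exact permutation p = 0.0357, adjusted 0.0429). Without the library labelled TAC replicate 2 the TAC over sham difference was 4.27, with too few libraries left to reach an adjusted p under 0.05. Shunt and sham differed by 0.30 (exact permutation p = 0.6984).

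Serum response factor and its partners are the best known regulators of muscle actin genes. Srf itself rose in TAC over sham, to 215 ± 21.9 CPM (SD, n = 3), against 150 ± 35.6 CPM (SD, n = 5), a log2 fold change of 0.52 ± 0.15 (adjusted p = 0.0159). Mrtfa, a coactivator of SRF that is itself held by free actin, rose by 0.34 ± 0.08 (adjusted p = 0.0041), and Hopx, a homeodomain protein that restrains SRF, fell by 1.04 ± 0.13 (adjusted p = 3.78e-05). Of the other 6 listed factors tested in TAC over sham, none passed: Myocd was at -0.27, Mrtfb at -0.06, Tead1 at 0.27, Gata4 at 0.16, Nkx2-5 at -0.18 and Fhl2 at -0.01 on the log2 scale. With 2 of 9 higher and 1 lower, the share called was near the 30.9% of all genes called in TAC over sham. Without the library labelled TAC replicate 2 there were also 2 higher and 1 lower, beside 11.9% and 10.2% of all genes. In Shunt over TAC, Srf, Mrtfa and Gata4 fell and Hopx rose, beside 13.6% of all genes lower and 13.3% higher. In Shunt over sham 0 of 9 passed, beside 0.242% of all genes. In sham over WT Myocd alone rose, by 0.42 ± 0.15 (adjusted p = 0.0497), beside 13.5% of all genes higher.

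Among 26 other genes known as SRF targets, 17 rose and 0 fell in TAC over sham, with a median log2 fold change of 0.67 beside 0.01 over all tested genes and 16.4% of them called higher. Without the library labelled TAC replicate 2, 15 rose, beside 11.9% of all genes. Nppa, atrial natriuretic peptide, was at 3470 ± 1335 CPM in TAC, against 45.4 ± 6.88 CPM in sham, Ankrd1, a stretch-responsive nuclear and Z-disc protein, at 6066 ± 1688 CPM, against 1177 ± 423 CPM, and Fhl1, a LIM protein of the sarcomere, at 1190 ± 479 CPM, against 233 ± 14.3 CPM (SD, n = 3 and 5). In Shunt over TAC 0 rose and 15 fell, beside 13.6% of all genes lower, and 11 fell without the library labelled TAC replicate 2, beside 9.49%. In Shunt over sham 0 were called, beside 0.242% of all genes. In sham over WT 1 rose, Myl9, a light chain of smooth muscle and non-muscle myosin, and 4 fell, beside 13.5% and 14.9% of all genes. Among these Nppa fell by 2.25 ± 0.61 and Ankrd1 fell by 0.91 ± 0.27 on the log2 scale. The list holds several genes of fibroblasts and smooth muscle as well as of heart muscle cells.

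Among proteins that bind, cap or sever actin filaments, more rose than fell in TAC. Of 39 tested, 20 rose and 3 fell in TAC over sham (median log2 fold change 0.37), beside 16.4% of all tested genes higher and 14.5% lower, and 18 and 4 without the library labelled TAC replicate 2, beside 11.9% and 10.2%. Xirp2, an actin-binding protein of the intercalated disc, was at 2430 ± 749 CPM in TAC, against 648 ± 53.1 CPM in sham (SD, n = 3 and 5). Cfl2, the muscle cofilin that severs filaments, rose by 0.52 ± 0.07, and Tmod1, which caps the pointed ends of thin filaments in heart muscle, fell by 0.39 ± 0.06. In Shunt over TAC 3 rose and 18 fell, beside 13.3% and 13.6% of all genes. Without the library labelled TAC replicate 2, 3 rose and 12 fell, beside 8.91% and 9.49%. In Shunt over sham only Tmod3 passed, higher by 0.34 ± 0.07 (adjusted p = 0.0491), where 0.242% of all genes were called. In sham over WT 2 rose and 3 fell, beside 13.5% and 14.9% of all genes, where Tmod1 rose by 0.46 ± 0.05 and Tmod4, a tropomodulin of skeletal muscle, had a log2 fold change of -2.04 ± 0.29.

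For genes that start and fold actin, the all-gene shares to read the counts against are those just given. Of 25 genes of the Arp2/3 complex and other nucleators, 10 rose and 1 fell in TAC over sham (16.4% and 14.5% of all genes), and 6 and 1 without the library labelled TAC replicate 2 (11.9% and 10.2%). The formin Diaph3 rose by 1.83 ± 0.30 and Fhod3, the formin of heart muscle sarcomeres, fell by 0.50 ± 0.09. In Shunt over TAC 2 of the 25 rose and 9 fell (13.6% of all genes lower), and 4 fell without that library (9.49% lower), in Shunt over sham 0 were called, and in sham over WT 1 rose and 3 fell. Of 16 genes of the folding pathway (the CCT chaperonin, prefoldin, and the actin-modifying enzymes Naa80 and Setd3), 3 rose and 1 fell in TAC over sham, a share near that of all genes. Without the library labelled TAC replicate 2, 4 rose and 0 fell, beside 11.9% and 10.2%. In the folding pathway 1 rose and 8 fell in Shunt over TAC, beside 13.3% and 13.6% of all genes. Without that library 0 rose and 9 fell there, beside 8.91% and 9.49%. In Shunt over sham 0 were called, and in sham over WT 4 rose and 1 fell, beside 13.5% and 14.9%. Setd3, which methylates a histidine of actin, was at 85.1 ± 1.53 CPM in TAC, against 76.8 ± 3.84 CPM in sham (log2 fold change 0.15 ± 0.05, adjusted p = 0.0353). Of 11 actin-related protein genes 8 were tested, with 1 higher and 2 lower in TAC over sham and 0 called in Shunt over sham.

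Markers of the cell types in the tissue moved in part with the actins, and their part in the results was not tested. Heart muscle markers were high in every library, with a summed level of 71917 to 78465 CPM in Shunt, 53263 to 77438 in TAC, 77926 to 91905 in sham and 66549 to 82108 in WT. In TAC over sham 2 of 8 rose and 5 fell, beside 16.4% of all genes higher and 14.5% lower. Without the library labelled TAC replicate 2, the counts were 2 and 3, beside 11.9% and 10.2%. Activated fibroblast markers, cells that also make Acta2 and Actb, summed to 112 to 339 CPM in Shunt, 418 to 1641 CPM in TAC, 97.3 to 298 CPM in sham and 127 to 227 CPM in WT, and 7 of 8 rose in TAC over sham, 6 of 8 without the library labelled TAC replicate 2. That library had the highest sum, 1641 CPM, and the lowest Acta2 of the TAC group. In the same comparison, fibroblast markers rose in 7 of 8 cases and smooth muscle and pericyte markers in 4 of 10. Endothelial markers rose in 4 of 8 and leukocyte markers in 0 of 9, beside 16.4% of all genes higher. Without the library labelled TAC replicate 2 these counts were 5, 3, 2 and 0, beside 11.9% of all genes higher.

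Skeletal muscle markers differed between libraries as well. The 9 listed genes, of which 4 passed the low-count filter, summed to 16.4 to 20.4 CPM in Shunt, 2.05 to 15.6 CPM in TAC, 18.9 to 32.6 CPM in sham and 2.11 to 2.84 CPM in WT, so that Shunt and sham libraries had more of them and less Acta1 than WT libraries, while TAC replicates 1 and 4, with sums of 15.6 and 14.9 CPM, had more of both. The library labelled TAC replicate 2 had the lowest sum, 2.05 CPM, and the highest Acta1. Atrial markers differed between libraries within every transgenic group, from 111.9 to 818 CPM in sham alone, beside 52.8 to 79.2 CPM in WT. No marker of any of these lists was at 0 in all libraries of a group.

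Over the 18 libraries, the genes whose log2 CPM was most like that of Acta1, among 11853 searched, were Cox19 (Pearson's r 0.968), Nppb (0.957), which encodes brain natriuretic peptide, and Pdlim5 (0.953), a Z-disc LIM protein. For deviations from the group means these were 0.833, 0.861 and 0.835. Actc1 was most like Pdlim7 (0.920), Acta2 (0.920) and Hacd1 (0.886), and Acta2 most like Actc1, Hacd1 (0.884) and Myl9 (0.864). Actg2 was most like the smooth muscle genes Kcnmb1 (0.819), Cnn1 (0.819) and Tagln (0.806). Actb was most like Bcl3 (0.910), Tada3 (0.904) and Tgfb1i1 (0.892), and Actg1 like Cstf2t (0.836), Mief1 (0.814) and Srsf7 (0.796). These values describe libraries that share groups and depth, and Acta1 and Actb were related to each other by 0.61 only.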

How the data were processed

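Per the labels, left ventricular RNA (RNeasy Fibrous Tissue Mini Kit) went into TruSeq RNA v2 libraries, a kit without strand information. The authors deposited a table of raw, unnormalised gene counts for each library. The submitters' processing notes name STAR 2.3.0e, HTSeq 0.6.1p1, CASAVA 1.8.2, SAMtools 0.1.19, FastQC and DESeq2 1.8, and the builds mm10 and GRCm38. The annotation release and the strand setting of the counting are not given in the sources used here. Summary lines that name no gene were left out. The no-feature line held 13.64% to 22.78% of the sum of gene, no-feature and ambiguous counts, and the line for non-unique alignments held 37.61% to 45.94% of all entries. GENCODE M21 gave symbols for 36602 of 38355 identifiers.

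Genes were kept with filterByExpr (minimum count 10), scaled by TMM and fitted with 1 mean per group over all 18 libraries in edgeR 4.0.16 under R 4.3.3 (quasi-likelihood F test, robust; biological coefficient of variation 0.16). The threshold for a call was an adjusted p (Benjamini-Hochberg over all tested genes) below 0.05, and each SE is the absolute log2 fold change divided by the root of its F statistic. Shares and ratios were tested by exact 2-sided permutation in scipy 1.17.1. The steps were tested on simulated data. Libraries of a group were compared for duplicates, and none was found (lowest chi-square per gene 7.077).

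The members and gene lists were chosen with earlier results of these data known. The rule for named genes takes the 6 actins, Ccnd2, every tested gene of the SRF factor list, up to 4 genes by smallest p from each other list, and the 3 genes most like each actin; Myl9 in sham over WT lies outside it and was chosen after its values were seen. Same-numbered TAC and sham libraries correlated by 0.129, 0.151 and 0.157 in their deviations from the group means, all over the limit of 0.1. Each other comparison had a pair below that limit. TAC replicate 4 correlated most with sham replicate 4, while TAC replicates 1 and 2 correlated most with sham replicates 3 and 5. The main fit stayed unpaired, and a fit with the replicate number as a block was run as an alternative. Alternatives were DESeq2 1.42.0, other scalings and filters, the replicate block, covariates (Y-linked, clock and atrial genes), 2 groups alone, non-robust estimation and leaving out each library. Fits within a clock phase were added after seeing the data.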

Additional observations from a re-analysis of the deposited data

Results flagged for a closer look

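Among 39 groups of values in which the highest or lowest library was set against the others, 3 stood out by Dixon's criterion, and chance alone gives about 1 in 20 groups. In WT, replicate 2 had the highest Actb, at a log2 CPM of 8.56 with the next library at 8.34, and the highest Actg2, at 1.14 with the next at 0.70. In sham, replicate 5 had the highest Actg2 share, 0.0287% of actin CPM with the next at 0.0112%, from 76 counts. Sham replicate 5 also had the highest atrial marker sum of its group, 818 CPM, and its part in the Actg2 value was not tested.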

How the results depend on the processing

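Fold changes and counts were recomputed under 29 to 31 other settings each in the 4 comparisons named by the series. Acta1 kept its direction and its call in TAC over sham (4.63 to 5.44 on the log2 scale) and in Shunt over TAC (-5.13 to -3.93) under all of them, and in sham over WT (-3.43 to -3.05) under all but the fit within the libraries with Dbp above Arntl. For every change below the cause was not tested.

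The number of actin genes higher in sham over WT was 1 under relative log expression scaling, the filter of 1 CPM in 3 libraries, DESeq2 and the libraries with Arntl above Dbp, 2 with the clock covariate, and 0 to 1 leaving out libraries (1 without WT replicate 2 or 3, sham replicate 3 or Shunt replicate 5). The number lower was 0 within Dbp above Arntl. In TAC over sham the number higher was 1 with the Y-linked or clock covariate, with the 2 groups alone and within Arntl above Dbp, and 1 to 3 leaving out libraries (1 without TAC replicate 1). The number lower was 1 with the clock covariate or DESeq2 and 0 to 1 leaving out libraries (1 without sham replicate 3). In Shunt over TAC 1 was higher with the clock covariate, and the number lower was 2 with the Y-linked covariate and 4 by DESeq2, library size scaling, the stricter filter, the atrial covariate and without TAC replicate 2 or Shunt replicate 1 or 5. In TAC over WT the number higher was 5 with the 2 groups alone, 3 by DESeq2, without robust estimation and within Arntl above Dbp, 0 with the Y-linked covariate, 1 with no low-count filter, the replicate block, the clock or the atrial covariate, and 1 to 3 leaving out libraries (1 without any WT library, sham replicate 2 or 4, TAC replicate 1 or 4, or Shunt replicate 2 or 5). In Shunt over WT 1 was higher with the clock covariate, and the number lower was 0 with the Y-linked covariate, the 2 groups alone or within Dbp above Arntl.

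Over all genes, the number called in sham over WT was 1140 within Arntl above Dbp and 1802 within Dbp above Arntl. In TAC over sham it was 483 with the Y-linked covariate and 1482 within Arntl above Dbp, in Shunt over TAC 2127 with the clock covariate, in TAC over WT 1834 and in Shunt over WT 773 with the Y-linked covariate. In Shunt over sham it was 0 with the Y-linked covariate, 58 with the clock covariate, 59 within Dbp above Arntl, 232 by DESeq2 and 21 to 92 leaving out libraries (21 without sham replicate 4, 92 without TAC replicate 4). In Shunt over sham and Shunt over WT the Y-linked covariate nearly repeats the group, so its counts there cannot separate the Y-linked level from the group. Within groups the Y-linked level differed widely only in TAC (-2.35, -2.21 and 5.20 in replicates 1, 2 and 4). The covariate thus rests largely on replicate 4 against replicates 1 and 2, and cannot separate the Y-linked level from other differences between them. Scaling by library size alone moved the calls in TAC over sham to 3025 higher and 1637 lower, beside 2440 and 2160. In Shunt over sham that scaling moved them to 35 and 17, beside 16 and 20.

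Log2 fold changes that crossed 0, none of them called: with the Y-linked covariate, Acta1 in Shunt over sham (-0.04) and Actc1 in Shunt over sham (0.14) and over WT (0.43). With the clock covariate, Acta2 in Shunt over sham (0.01), Shunt over TAC (0.03) and TAC over sham (-0.01), Actb (0.07) and Actc1 (0.14) in Shunt over WT. With the atrial covariate, Actg2 in sham over WT (-0.25) and Actc1 in Shunt over WT (0.11). Within Arntl above Dbp, Acta2 in TAC over sham (-0.18) and Actg2 in sham over WT (-0.38). Within Dbp above Arntl, Acta2 (0.30) and Actg1 (0.04) in Shunt over sham and Actc1 in Shunt over WT (0.09). With library size scaling, Actc1 in Shunt over WT (0.03) and Actg1 in TAC over WT (0.01). With no low-count filter, Actc1 in Shunt over WT (0.01). With the replicate block, Actg1 in TAC over WT (0.04). Leaving out libraries gave ranges of -0.29 to 0.26 for Actg2 in sham over WT, -0.15 to 0.72 for Acta2 in TAC over sham, -0.55 to 0.05 for Acta2 and -0.26 to 0.02 for Actg1 in Shunt over sham, -0.15 to 0.08 for Actg1 in TAC over WT, and -0.20 to 0.10 for Actc1 in Shunt over WT.

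With Acta1 left out of the sum, share differences in percentage points changed sign for Actc1 in sham over WT (-0.731), for Actb in sham over WT (-0.222), TAC over sham (0.368) and Shunt over TAC (-0.136), and for Acta2 in TAC over sham (0.165), Shunt over sham (0.0183) and Shunt over TAC (-0.147). Leaving out libraries, Acta2 shares ranged from -1.55 to 0.00201 in TAC over sham, -0.380 to 0.367 in Shunt over sham and -0.0306 to 1.52 in Shunt over TAC, and the log2 ratio of Acta1 to Actc1 from -0.12 to 0.83 in Shunt over sham.

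The replicate block changed no call of an actin gene in the 4 comparisons named by the series (in TAC over sham, Acta1 5.20 with edgeR adjusted p = 4.18e-04 and Actb 0.38 with 0.0111). In TAC over WT, Actc1 lost its call under the block (0.51, edgeR adjusted p = 0.0956). Actb lost its call in TAC over sham under 5 settings, among them the 2 groups alone (0.43, edgeR adjusted p = 0.0599) and without TAC replicate 1 (0.39, edgeR adjusted p = 0.0651). Depth limits Actg1 and Actg2, which had at most 194 and 76 counts in a library. All Shunt libraries have low Y-linked levels and Dbp above Arntl, and all TAC libraries have Arntl above Dbp. Clock phase and operation thus cannot be told apart in Shunt over TAC. No sham or WT library has low Y-linked levels. The Y-linked level and the group thus cannot be told apart in Shunt over sham or in Shunt over WT.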
